A study of Mus musculus with 4 samples.

Results

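Long interspersed elements (LINE) are retrotransposons, and most LINE copies in the mouse genome are old, truncated and unable to move. The ancient LINE subfamilies were taken from the deposited count table by name. They are the repeat entries of class LINE that do not carry a name of the rodent L1 lineages (L1Md, L1_Mu, L1_Mm, L1_Rod, L1VL or Lx, with upper and lower case kept apart). This rule found 186 of the 1445 repeat entries, out of 295 entries of class LINE. Of these, 16 go against the label, since the names L1Lx, LX3 and MusHAL1 point to rodent elements. They are called rodent-named here, and the main counts are given with and without them. The other 170 entries belong to the mammalian L1M lineages, to HAL1, to L1P, and to the L2, CR1, RTE and other families.

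The cells were mouse embryonic fibroblasts (MEF), all from what the labels call the cell line MEF. They were either untreated or exposed to 50 µM genistein, a plant isoflavone that inhibits tyrosine kinases, for 24 h. The labels call the untreated cells wild-type and give the treatment in place of a genotype for the others. There were 2 libraries of total RNA per group, untreated 1 and 2 and genistein 1 and 2. The labels do not say whether the untreated cells received the solvent, nor whether replicates came from separate cultures, so the p-values measure only the spread between these libraries.

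LINE elements of the L1, L2, CR1 and RTE families copy themselves through RNA with a reverse transcriptase of their own. A complete L1 has a promoter in its 5′ untranslated region, a first open reading frame (ORF1) for an RNA-binding protein and a second one for the reverse transcriptase. In the L1M series, the names L1MA to L1ME run broadly from younger to older elements. HAL1 is an L1 relative that lacks the second reading frame. L2 and CR1 are older than most L1 copies in mammals. The copies of these families are fossils that lie mostly in introns and between genes, and RNA reads from them can come from primary transcripts that run through them.

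The total counts over genes and repeats ran from 28591958 to 31464284 per library. Of 12 fibroblast markers, 11 had counts, and their sum lay between 14287 and 15442 CPM (counts scaled by the effective library size, the total times its TMM factor). Thy1 was listed at 0 in every library, and Lum stayed at or below 0.334 CPM. The 16 markers of other cell types summed to between 33.4 and 38.8 CPM in 3 libraries and slightly more in genistein 1, most of it Tubb3. Des, a muscle filament gene, was at 1.24 and 0.991 CPM in untreated cells and at 9.47 and 8.83 CPM with genistein, while the muscle regulators Myod1 and Myog had at most 1 read in a library. Kdr, an endothelial receptor, was at 0.534 and 0.672 against 2.29 and 2.5 CPM, and Krt18, an epithelial keratin, at 1.64 and 1.49 against 0.282 and 0.169 CPM. Epcam, Krt5, Adgre1 and Sox10 were at 0 in every library. The part of these genes in the results was not tested. In these bulk libraries fewer cells of a type and less RNA per cell cannot be told apart.

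Reads of ancient LINE subfamilies made up a larger share of the RNA after genistein. Their share of all counts was 0.27% and 0.296% without genistein, and 0.494% and 0.495% with it. As normalised read counts, which correct for library size, the 186 entries together had 83046 and 90687 in untreated 1 and untreated 2, and 145688 and 143194 in genistein 1 and genistein 2. The sum thus stood at 86866 ± 5403 (SD, n = 2) without and at 144441 ± 1764 (SD, n = 2) with genistein, a ratio of 1.66. Both genistein libraries were above both untreated libraries, and the gap between groups exceeded the gap between replicates. Without the rodent-named entries the ratio was 1.64. Within repeats the share of ancient LINE reads was 2.26% and 2.37% in untreated cells and 3.37% and 3.65% with genistein.

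The sums were then split into 12 name groups, to see whether old and less old lineages moved alike. The L1MA entries, the youngest of the L1M series, summed to 10017 and 11003 normalised counts in untreated cells and to 16692 and 16607 with genistein. The L1MB entries went from 12284 ± 644 to 20727 ± 342 (SD, n = 2). The L1MC entries went from 11846 ± 749 to 19696 ± 323 (SD, n = 2). All 3 sums had groups that did not overlap, with ratios of 1.58, 1.69 and 1.66.

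The L1MD entries had a ratio of 1.59, the L1ME entries 1.68 and the remaining L1M entries, which hold 19.6% of all ancient LINE counts, 1.62. The HAL1 sum rested on 4 entries with a ratio of 1.59. The L2 family, 13 entries, went from 2536 ± 153 to 4013 ± 33.0 normalised counts (SD, n = 2), a ratio of 1.58. The CR1 family, 25 entries, had a ratio of 1.60, and the RTE and remaining families, 11 entries, 1.62. The L1P sum was small, at 137 and 142 against 255 and 254 normalised counts, with a ratio of 1.83. The rodent-named entries, which hold 20.6% of the counts, had a ratio of 1.77. The ratios of the name groups therefore ran from 1.58 to 1.83, and they did not follow the order from L1MA to L1ME. No test was made of these sums. An exact permutation test of 2 libraries against 2 cannot give a p-value under 0.333.

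**Figure D1:**
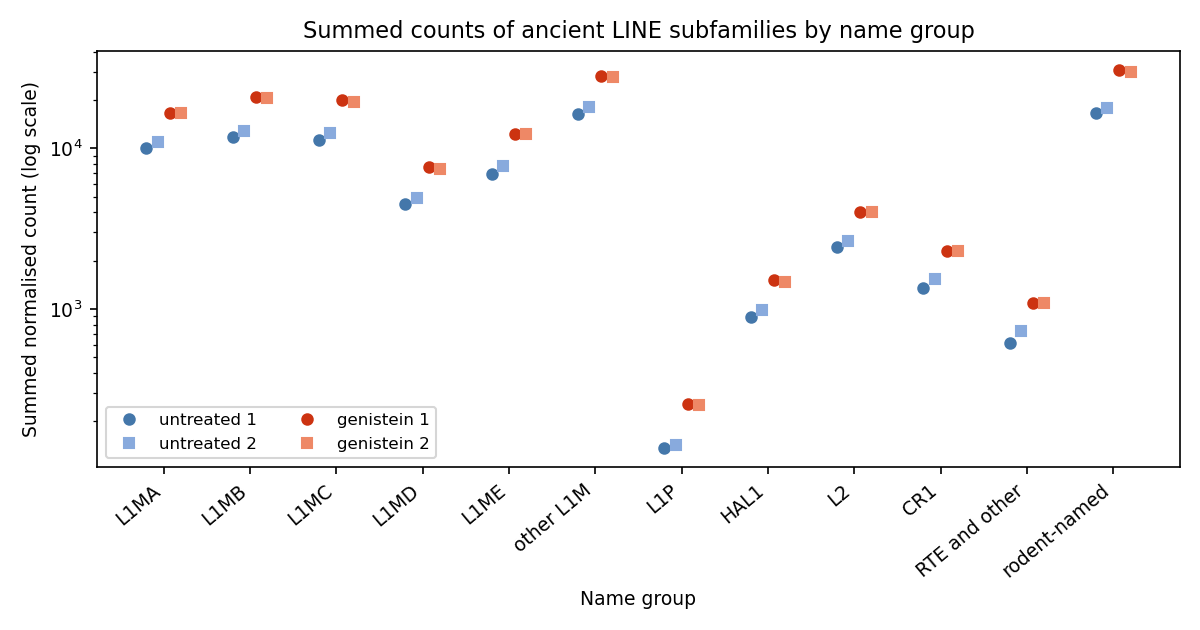
Summed normalised counts (log scale) of the ancient LINE entries in 12 name groups, 1 point per library (circles, replicate 1; squares, replicate 2). In every name group both genistein libraries lie above both untreated libraries, for example 16692 and 16607 against 10017 and 11003 in L1MA.

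Single subfamilies were tested beside all genes and repeats with edgeR's quasi-likelihood test. Of the 186 entries, 150 had enough counts to be tested. At an adjusted p-value under 0.05, 132 rose and 1 fell, with 17 not passing (136 and 1 at an unadjusted p-value under 0.05). Among all genes and repeats 36.2% were higher and 36.0% lower by this rule, and among all repeats 76.3% were higher and 2.86% lower. The share of ancient LINE subfamilies that rose, 132 of 150, thus stood above the share of all repeats, and among genes 33.5% were higher. The 150 include 11 entries that passed the filter on low counts only through the genistein libraries, so that they had to be higher. The number of such entries among all repeats is not given here, so these shares are not strictly comparable. A high share was also found in rodent L1 entries, where 93 of 96 rose, and in MIR entries, where 5 of 5 rose. Without the rodent-named entries, 120 of 137 rose and 1 fell. With DESeq2 103 rose and 0 fell, and with repeats fitted alone, which sets their typical change near 0, 14 rose and 3 fell. These increases are therefore relative to genes and largely absent against the typical repeat entry. Against repeat reads as a whole the ancient LINE sum was still higher: the summed counts of all repeats had a ratio of 1.1, against 1.66. This was not particular to ancient LINE entries, since the sums of rodent L1, MIR and DNA transposon entries had ratios of 1.68, 1.63 and 1.56.

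The median log2 fold change over the 150 entries was 0.74, against 0.69 over all repeats, -0.03 over all genes and 0.02 over all entries tested. With repeats fitted alone the median of the ancient LINE subfamilies was 0.04. Both genistein libraries lay above both untreated libraries in 143 of the 150, below them in 1, and the groups overlapped in 6. The first order was found in 43.4% of all genes and repeats, in 40.7% of genes and in 83.8% of repeats, and the second in 42.0%, 44.6% and 4.2%. Of the 150 entries, 11 passed the filter on low counts only through the genistein libraries, so that they had to be higher. The 95 entries with a mean normalised count over 100 do not depend on that step. Of these, 93 rose and 0 fell (edgeR, and 0 were lower at an unadjusted p-value under 0.05), and 94 had both genistein libraries above both untreated ones. The shares of all repeats above that mean are not given here. Such a one-sided split is not particular to ancient LINE entries: of 96 rodent L1 entries of any mean, 93 rose and 94 had this order.

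The 36 entries that were not tested held few reads. In 14 of them no library had a count, and the largest count in any library was 14. Their summed raw counts were 56 and 46 in untreated cells and 94 and 79 with genistein. Of 11 CR1 and L2 entries named after crocodilian genomes, 5 had no count in any library and only 2 were tested.

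The changes became more alike as the counts grew. In the 32 subfamilies with a mean over 1000 normalised counts, the log2 fold changes lay between 0.58 and 0.91 with a median of 0.70, and all 32 rose. Their median standard error was 0.04. In the 28 subfamilies with a mean of 30 or less, values ran from 0.12 to 2.05 with a median of 0.84, but the median standard error was 0.35. These 28 include the 11 entries that passed the filter only through the genistein libraries, among them the one at 2.05. The filter itself thus raised the median and the upper end of this bin. The counts were also spread over many entries. The 10 largest entries held 41.9% of the ancient LINE counts and the largest alone held 6.36%. The untreated replicates differed mainly by a shift that the entries shared, and the genistein replicates showed little of such a shift. Untreated 2 lay above untreated 1 in 84 of the 95 entries with a mean over 100, with a median ratio of 1.09, and genistein 1 lay above genistein 2 in 54 of them, with a median ratio of 1.01. With the difference in the summed LINE counts of the pair taken out, the chi-square per degree of freedom over the ancient LINE entries was 1.09 for the untreated and 1.24 for the genistein pair. The same measure over all genes and repeats, with the difference in their totals taken out, was 5.89 and 13.2. It depends on the size of the counts, which reach far higher among genes, so these values are not directly comparable.

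L1M4, the entry with the most counts after L1Lx_I, shows the typical change. Its normalised counts were 5033 and 5687 in untreated cells and 8648 and 8365 with genistein, or 0.67 ± 0.05 (standard error) as a log2 fold change (adjusted p = 2.6e-09, edgeR with Benjamini-Hochberg adjustment) and -0.03 with repeats fitted alone. L1MB7, the leading L1MB entry, had 3249 and 3589 against 5789 and 5772 (log2 fold change 0.76). L1MA6, the leading L1MA entry, had 2165 and 2367 against 3786 and 3636 (log2 fold change 0.71). In all 3 the groups were clearly apart, and the genistein libraries were close to each other.

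L1MC4 and L1MD, the leading entries of their groups, both had a log2 fold change of 0.67, and L1ME1 had 0.69. For L2a, a fossil of the L2 family, the counts were 1420 and 1500 in untreated cells and 2343 and 2269 with genistein, a log2 fold change of 0.66 (standard error 0.04). For HAL1 the value was 0.65 and for L4_A_Mam, of the RTE family, 0.58. These 6 entries passed the adjusted p-value threshold beside genes, but with repeats fitted alone their values were -0.03, -0.03, -0.0034, -0.04, -0.05 and -0.12, none of them past it. L3, the leading CR1 entry, had 592 and 743 against 1150 and 1148 normalised counts (log2 fold change 0.79). L1PB4, the larger L1P entry, had 87.9 and 94.2 against 145 and 159.9 (log2 fold change 0.74). L1Lx_I, the largest rodent-named entry, had 5050 and 5432 against 9609 and 9298, with a log2 fold change of 0.85 and a standard error of 0.04. MusHAL1, a rodent-named relative of HAL1, had 155 and 221 against 325 and 299.6 (log2 fold change 0.74), so its untreated libraries were far from each other.

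**Figure D2:**
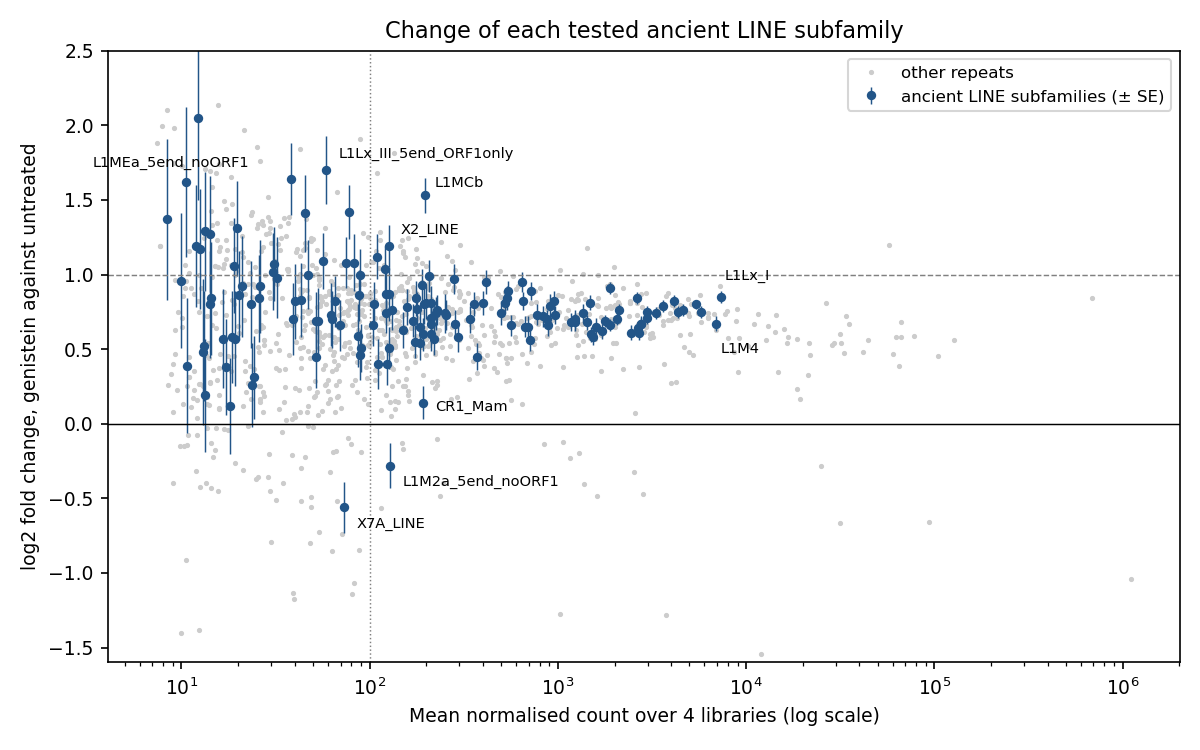
log2 fold change of genistein against untreated (± standard error) for the 150 tested ancient LINE subfamilies (blue), against the mean normalised count on a log scale, with the other tested repeats in grey (3 of them lie outside the plotted range). The dashed line marks a log2 fold change of 1 and the dotted line a mean count of 100. Subfamilies with a mean over 1000 lie between 0.58 and 0.91, while with repeats fitted alone the typical value is 0.04.

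The thresholds of the study asked for more: an adjusted p-value under 0.05, a log2 fold change beyond 1 in either direction and a mean normalised count over 100. By these, 4 ancient LINE subfamilies were higher and 0 were lower, against 3.91% higher and 3.92% lower among all genes and repeats, and 3.67% higher and 0.358% lower among all repeats. DESeq2 also gave 4 higher and 0 lower, and with an unadjusted p-value in edgeR 0 were lower as well. The 4 of 150 were thus close to the share of all repeats. None passed with repeats fitted alone.

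L1MCb had the largest change of the 4. Untreated cells had 106 and 95.3 normalised counts, and genistein cells 313 and 268. This is a 2.89-fold rise, or 1.53 ± 0.12 (standard error) as a log2 fold change (adjusted p = 9.5e-09, edgeR). It was the 1 entry that also passed a test against the fold threshold itself (glmTreat of edgeR, adjusted p = 0.0014). The other 12 tested L1MC entries lay between 0.46 and 0.87, so L1MCb stood apart from its own name group. It also stayed higher with repeats fitted alone, at 0.83.

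X2_LINE, an old element of the CR1 family, had 69.9 and 83.6 against 169.7 and 180.2 normalised counts. The log2 fold change came to 1.19 ± 0.14 (standard error; adjusted p = 1e-06, edgeR). The 5′ part of L1MEf without ORF1 had 61.9 and 76.2 against 157 and 143, with a log2 fold change of 1.12 and a standard error of 0.15 (adjusted p = 4.6e-06, edgeR). The 5′ part of L1Lx_II, a rodent-named entry, had 68.9 and 88.9 against 169.7 and 154, with a log2 fold change of 1.04 and a standard error of 0.15 (adjusted p = 9.2e-06, edgeR). In these 3 entries the groups did not overlap, but their choice by the thresholds nearly sets this, so it adds no support. With repeats fitted alone, X2_LINE (0.49, adjusted p = 0.02, edgeR) and the L1MEf entry (0.42, adjusted p = 0.048, edgeR) also stayed higher. The L1Lx_II entry (0.34, adjusted p = 0.093, edgeR) did not pass there. Single libraries decided whether the L1MEf and L1Lx_II entries passed all thresholds. Without untreated 1 the L1MEf and L1Lx_II values were 0.97 and 0.86, and without genistein 1 the L1Lx_II value was 0.97. The mean count of the L1MEf entry was 91.6 without genistein 1 and 98.7 without genistein 2. Without untreated 2 there were 11 higher entries instead of 4.

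A few subfamilies rose less than most, did not pass or fell. CR1_Mam, a mammalian CR1 fossil, had 188 and 175 normalised counts in untreated cells and 194 and 205 with genistein. Its groups did not overlap but were close, and its log2 fold change of 0.14 ± 0.11 (standard error) did not pass (adjusted p = 0.26, edgeR). With repeats fitted alone it was -0.56 (adjusted p = 0.0073, edgeR).

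The 5′ part of L1M2a had 119.9 and 163 in untreated cells and 121 and 110.3 with genistein, so the groups overlapped. The log2 fold change came to -0.28 ± 0.15 (standard error; adjusted p = 0.10, edgeR). It passed as lower without untreated 1 (-0.498, adjusted p = 0.0029, edgeR), with no filter on low counts (-0.31, adjusted p = 0.049, edgeR) and with repeats fitted alone (-0.98, adjusted p = 0.00056, edgeR). The ORF1 entry of L1M8 had 76.9 and 114 against 135 and 115, and its log2 fold change was 0.40 (adjusted p = 0.047 in edgeR), but -0.30 with repeats fitted alone. It no longer passed without untreated 1 (0.13) or without genistein 1 (0.28).

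X7A_LINE, of the CR1 family, was the 1 subfamily that fell, and it was picked for naming after its value was seen. Its counts were 90.9 and 82.6 in untreated cells and 65.6 and 51.6 with genistein, all 4 below 100. This gave a log2 fold change of -0.56 ± 0.17 (standard error; adjusted p = 0.009, edgeR). With DESeq2 the value was about the same, -0.57, but missed the threshold (adjusted p = 0.10), as it did without genistein 2 (-0.40, adjusted p = 0.12, edgeR). With repeats fitted alone it was -1.26 (adjusted p = 0.00062, edgeR).

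**Figure D3:**
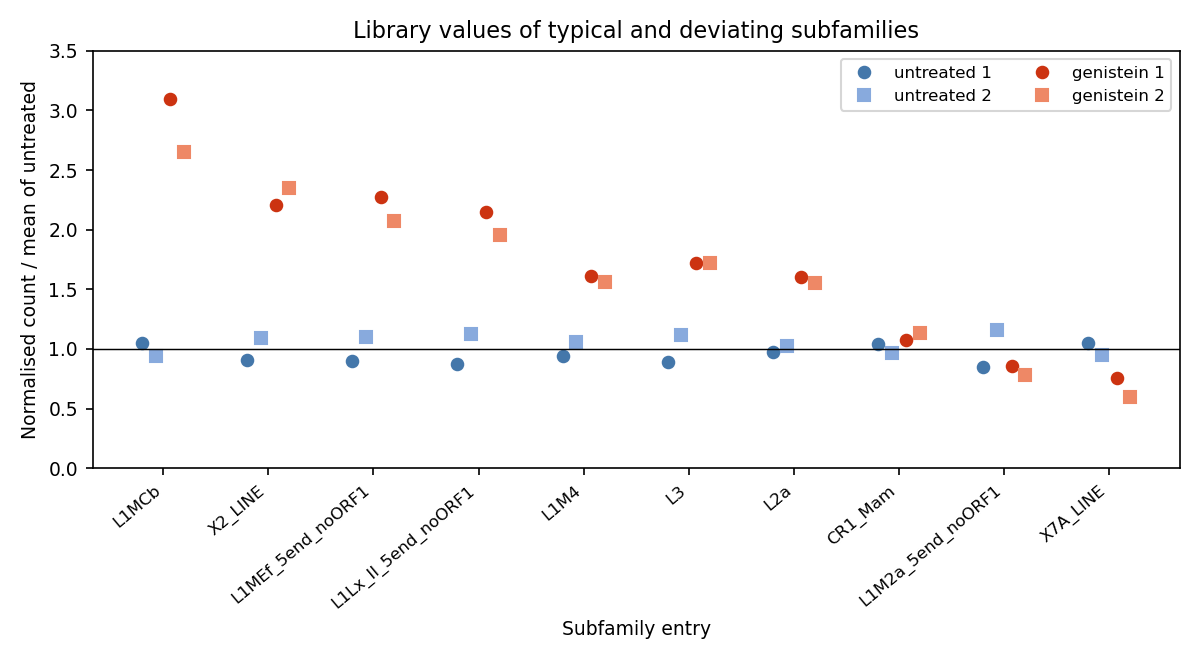
Normalised count of 10 subfamily entries in each library, divided by the mean of the 2 untreated libraries (line at 1). L1M4, L3 and L2a show the typical rise relative to genes, L1MCb lies highest at 313 and 268 against 106 and 95.3 normalised counts, and X7A_LINE lies below 1 at 65.6 and 51.6 against 90.9 and 82.6.

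The authors had counted ORF1 and the rest of the 5′ part of many L1 subfamilies as separate entries, which allows the promoter-bearing end to be set beside the other parts. The 35 entries for 5′ parts without ORF1 summed to 3112 and 3363 normalised counts in untreated cells and to 5581 and 5377 with genistein, a ratio of 1.69. The 31 ORF1 entries summed to 4256 and 4649 against 7622 and 7321, a ratio of 1.68. The 120 remaining entries, which include the L2, CR1 and RTE families and so are not all parts of L1 elements, had a ratio of 1.66. The 3 ratios were close to each other, and their differences were not tested.

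Of the 5′ parts, 24 of 32 tested rose and 0 fell, with a median log2 fold change of 0.80, a share near the 76.3% of all repeats that were higher. Of the ORF1 entries, 20 of 22 rose and 0 fell, with a median of 0.83. In 20 subfamilies both were tested: the 5′ part had the larger log2 fold change in 9 and ORF1 in 11, with a median difference of -0.05 (5′ part minus ORF1). In only 8 of the 20 did both parts have a mean over 100. Some of the others hold a part that passed the filter only through the genistein libraries and so had to be higher. In those pairs the filter bears on which part is larger. The difference exceeded 2 combined standard errors in 3 of the 20. In L1Lx_III the 5′ part had a log2 fold change of 0.97 and ORF1 one of 1.70, the latter on 27.0 and 28.6 against 107 and 72.9 normalised counts. In L1Lx_IV the values were 0.89 and 0.74. In L1M4a1 they were 2.05 and 0.63, but the 5′ part had only 49 reads over the 4 libraries and passed the filter only through the genistein libraries.

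Other kinds of repeat were set beside the ancient LINE subfamilies: the younger rodent L1 entries, the DNA transposons, which are also inactive fossils, and MIR, an old SINE that was copied by L2. The median log2 fold change was 0.82 for 96 rodent L1 entries, 0.71 for 213 DNA transposon entries and 0.72 for the 5 MIR entries. Of these, 93, 167 and 5 rose (edgeR, adjusted p-value under 0.05). The sum over ancient LINE entries divided by that over rodent L1 entries was 0.654 and 0.665 in untreated cells and 0.649 and 0.655 with genistein, so the groups overlapped. Against MIR the ratio was 5.71 and 5.85 in untreated cells and 5.86 and 5.96 with genistein, so the groups did not overlap but nearly met, which was not tested. Against DNA transposons it was 1.45 and 1.46 in untreated cells and 1.56 and 1.53 with genistein, a small shift whose groups did not overlap and which was not tested.

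Genes that lie in introns gave a readout that does not come from the repeat annotation. GENCODE calls a noncoding gene sense intronic when it lies within an intron of a coding gene on the same strand. Of 154 tested sense intronic genes, 103 rose and 4 fell (edgeR), with a median log2 fold change of 0.84. Their counts summed to 7035 and 7447 normalised counts in untreated cells and to 12105 and 11772 with genistein, a ratio of 1.65. The ancient LINE sum was between 11.8 and 12.2 times this sum in the 4 libraries, and the groups overlapped. Of 318 lincRNA genes, which lie between coding genes and are counted over exons, 137 rose and 45 fell, with a median of 0.41. The 12217 protein-coding genes had a median of -0.05. Without strand in the counting, which was not stated, reads from overlapping genes cannot be told apart.

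**Figure D4:**
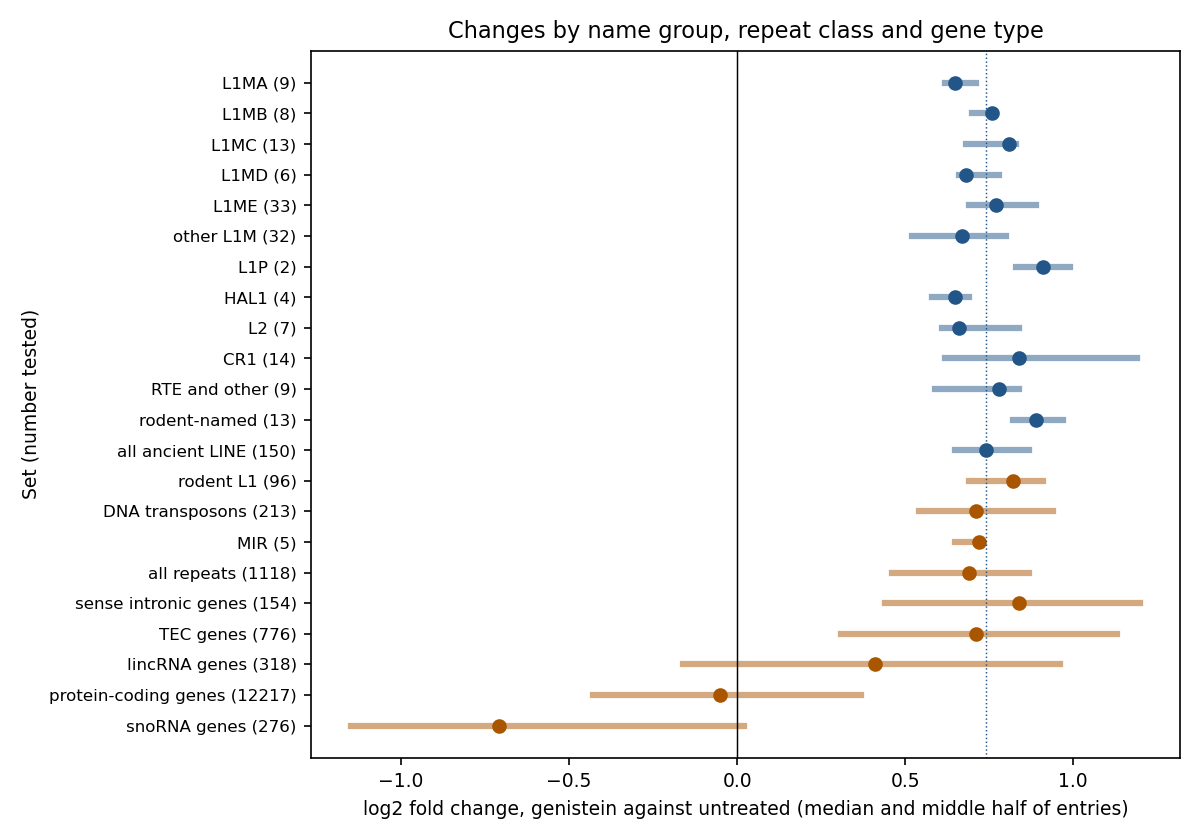
Median (point) and range from the lower to the upper quartile (bar) of the log2 fold changes in each name group of ancient LINE entries (blue) and in other repeat and gene classes (brown), with the number tested in parentheses. The dotted line marks the median of all ancient LINE subfamilies, 0.74 beside genes and 0.04 with repeats fitted alone. Sense intronic genes have a median of 0.84 and protein-coding genes one of -0.05.

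Genes that silence LINE elements or act on the RNA that carries them were compared by lists written from general knowledge. Across the 5 lists 73 genes were tested, of which 5 rose and 57 fell (edgeR, adjusted p-value under 0.05), with a median log2 fold change of -0.52. Among all genes 33.5% were higher and 38.2% lower by this rule. Past all thresholds 0 were higher and 5 were lower, against 3.92% and 4.16% of all genes.

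The nuclear RNA exosome is the complex that degrades intron fragments, read-through and other short-lived nuclear RNA. Of its 19 tested subunits and adaptors, 17 fell and 2 rose, with a median of -0.77. All 9 tested Exosc genes, which encode its subunits, fell. Exosc3 had 763 and 779 normalised counts in untreated cells and 309 and 377 with genistein (log2 fold change -1.17, standard error 0.08). Exosc1 had 939 and 939 against 446 and 409 (log2 fold change -1.13, standard error 0.06). Dis3, a catalytic subunit, had 4256 and 4265 against 2007 and 2097, and Exosc10, the other nuclease, 2790 and 2705 against 1543 and 1519. Mtrex, the helicase that feeds RNA to the exosome, had a log2 fold change of -0.68. Of the adaptors, Zc3h3 rose (log2 fold change 0.64) from 178 and 196 to 334 and 246, and Zfc3h1 rose by 0.22.

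The HUSH complex and the KAP1 pathway place repressive chromatin on transposons. Of 12 tested genes in the list, 9 fell and 1 rose. The list is wider than HUSH and KAP1 themselves. The 9 include Uhrf1 (-0.69), Hells (-0.61), Dnmt1 (-0.57) and Chd4 (-0.45), which are genes of DNA methylation and chromatin remodelling (log2 fold changes). Trim28, which encodes KAP1, had 12023 and 11626 normalised counts in untreated cells and 6178 and 6024 with genistein (log2 fold change -0.95, standard error 0.04). Sumo2 had a log2 fold change of -0.77. The HUSH genes Mphosph8, Fam208a and Pphln1 had smaller log2 fold changes of -0.38, -0.31 and -0.31. Atf7ip, a partner of the methyltransferase Setdb1, rose from 1480 and 1605 to 3080 and 2940 (log2 fold change 0.97), while Setdb1 (-0.07) and Morc2a (-0.05) did not pass.

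The other lists were split less sharply or fell almost whole. Of 14 RNA-binding proteins that act on introns, several of which bind LINE sequence there, 13 fell and 0 rose, led by Ptbp1 (14373 and 13782 against 7749 and 7449, log2 fold change -0.89) and Hnrnpu (-0.85). Of 16 genes for transcription termination and intron turnover, 11 fell and 1 rose. Cstf2 and Cpsf2, of the cleavage machinery, had log2 fold changes of -0.92 and -0.86, and Pcf11 rose by 0.13. Of 12 tested genes listed as L1 restriction factors, 7 fell and 1 rose. Whether each of them restricts L1 in these cells was not tested. Apobec3, an antiviral deaminase, rose from 759 and 784 to 1063 and 976 normalised counts (log2 fold change 0.40), and Rnaseh2b and Rnaseh2a had values of -0.52 and -0.49. The largest adjusted p among the genes named here as changed was 0.004, for Pcf11 (edgeR). Whether these genes bear on the LINE reads was not tested.

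**Figure D5:**
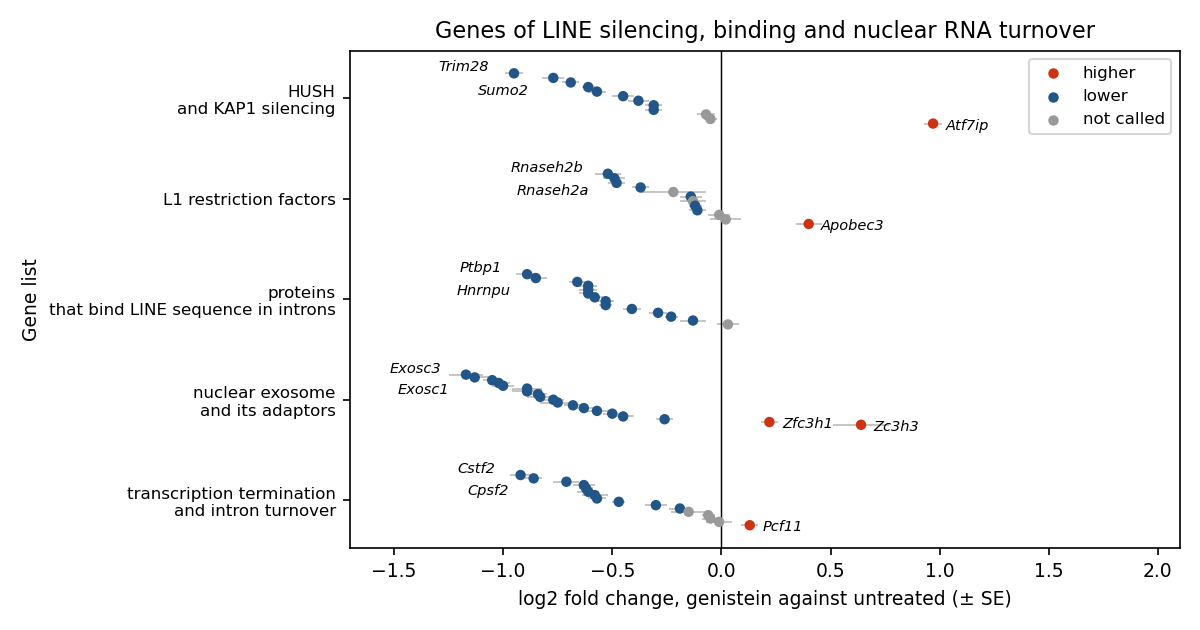
log2 fold change (± standard error) of the 73 tested genes in 5 lists, red for higher and blue for lower at an adjusted p-value under 0.05 (edgeR) and grey for neither. The nuclear exosome list lies almost wholly below 0, with a median of -0.77.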

How the data were processed

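Total RNA of untreated and genistein-exposed MEF cells was depleted of ribosomal RNA and sequenced from both ends. After trimming with Trim Galore, the authors used STAR to align reads to mm10 with multi-mapping reads retained, and counted them with TEtranscripts over GENCODE genes and a RepeatMasker annotation in which ORF1 and the rest of the 5′ part of L1 elements are separate entries. The deposited values are raw counts per gene and per repeat subfamily. How reads that overlap both an exon and a repeat, or that align to many places, were shared out is not given in the sources used here. A subfamily sums all its copies and has no single coordinate. Levels of subfamilies were not set against each other, since their lengths were not used here.

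Of 49383 entries, 1 carried no name and stayed out of the library sizes and tests (0.00208% to 0.00314% of a library's counts). edgeR 4.0.16 in R 4.3.3 was run on genes and repeats together, with filterByExpr, TMM scaling and Benjamini-Hochberg adjustment over all 17358 kept entries. Normalised counts are raw counts scaled to a common effective library size, the mean of the 4 libraries. The standard error was the log2 fold change divided by the square root of F. The test was checked on simulated counts with 4-fold changes in both directions and a dispersion of 0.01. This setting differs from the smaller, shared rise of the repeats, so the check does not cover it. Replicate chi-squares used entries with a count of 20 or more over a pair. No source used here names molecular identifiers, so reads need not be independent molecules.

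The members, lists and tests were chosen with earlier results of these data known. The text names every subfamily past all thresholds, the most abundant one in each name group, the 3 highest and 3 lowest with a mean over 100, MusHAL1 and, per gene list, up to 2 higher and 2 lower genes with the largest change, besides a few entries and list genes, among them X7A_LINE, chosen after their values were seen. The alternatives were other scalings, no filter, DESeq2 1.42.0, a replicate block, other thresholds, other members and leaving out each library. In the gene lists, 1 gene is not reported here and was taken out of the counts. Leaving out the rodent-named entries was added after the data were seen. Deviations from the group means had a correlation of -0.026 between libraries with the same number.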

Additional observations from a re-analysis of the deposited data

How the results depend on the processing

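With repeats fitted alone, 0 subfamilies were higher past all thresholds, 14 rose and 3 fell, with 82.4% of these calls higher in place of 99.2%, and the median was 0.0448. Fitting repeats alone centres them near 0 by construction, at a median of -0.012 over all repeats against 0.685 before. HAL1 (-0.0516), L1MC4 (-0.0284), L1MD (-0.0298), L1ME1 (-0.0034), L2a (-0.0376), L1M4 (-0.0291), L4_A_Mam (-0.12), CR1_Mam (-0.56) and L1M8_5end_ORF1only (-0.298) then changed sign, as the recentring itself sets for entries near the repeat median, and of these only CR1_Mam passed the adjusted p-value threshold (edgeR). The distance of the median from that of all repeats was 0.0572 and lay between 0.0471 and 0.0661 under every alternative run. With library totals alone 9 subfamilies were higher, 4 of them shared with the 4 of the report, and the median was 0.812. With a mean count over 10 there were 23 higher, with no fold threshold 93, and with the test against the fold threshold 1. The entries that fell were 2 with no filter and 0 with DESeq2. Leaving out each library gave 3 to 11 subfamilies past all thresholds, 0 to 2 that fell, 115 to 129 that rose, and medians from 0.677 to 0.804. The replicate block gave 4 higher and 0 lower subfamilies, 132 that rose, 1 that fell, a median of 0.744, and 5 higher and 56 lower listed genes. It changed no call of the named subfamilies, and the labels give no reason to pair libraries by number. The listed genes gave 4 or 5 higher and 53 to 59 lower under every alternative run for them. Depth limits the entries with a mean of 30 or less, of which 14 of 28 did not pass.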

Other observations

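Gene classes outside the comparisons above also differed in their typical change. Protein-coding genes were split into 5 equal bins by the length of the gene from start to end. In the shortest bin, 2444 genes of up to 8.31 kb, the median log2 fold change was -0.24, with 22.9% higher and 51.7% lower (edgeR, adjusted p-value under 0.05). The median was -0.14, -0.08 and -0.02 in the following bins and 0.18 in the longest, 2444 genes of at least 70.0 kb, with 50.5% higher and 26.3% lower. Small nucleolar RNA genes, whose RNA is cut out of introns, had a median of -0.71 over 276 genes, 25 higher and 151 lower. The processed pseudogenes, intronless copies of mRNA, had a median of -0.35 over 1218 genes.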
